A study of Sus scrofa with 3 samples.

Results

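A pair of lungs was compared gene by gene: the operated lung after ischemia-reperfusion (I-R) in a minipig and the lung of a sham minipig. They are 2 of the 3 lung arrays of the series. On them, 10069 probe sets each stand for exactly 1 gene, and together they cover 6765 genes. A gene was counted when its signal lay above the floor, which is each array's median signal, on at least 1 of both arrays. That left 5097 genes, read by 6384 counted probe sets, and 1668 genes that were at or below the floor on both arrays. In the I-R minipig the left pulmonary artery was blocked for a time and released, and the bronchus was spared, so that air still reached the lung while its pulmonary arterial flow stopped. The operated lung is the left one. The other I-R array holds the right, non-operated lung, and its signals are given beside the rest because it shares the same sham array. Animals were housed free of specific pathogens, per the labels. The age and sex of the animals, the length of occlusion, the time of reperfusion, any pooling, and whether both I-R lungs came from the same animal are not stated in the labels used here. Each group is 1 array, so no value has a replicate error and no p-value is given, and the operation, the animal and the array cannot be told apart.

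Background helps in reading the genes. Lung tissue receives blood from the pulmonary and the bronchial arteries, and oxygen from the air in the alveoli, so a ventilated lung without pulmonary arterial flow is starved of flow more than of oxygen. When flow returns, oxidants, leukocytes and fluid can injure the thin barrier of endothelium and alveolar type 1 cells. Glucocorticoids induce a known set of genes in many cells, and heme freed from red cells is taken up and broken down by macrophages. A lung can further hold lymphoid follicles along its airways, where B cells gather and divide.

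Signals below are linear MAS5 units, taken back from the deposited log2 values, and each array's mean signal, after 2% of probe sets were trimmed off at each end, lay between 495 and 496. Where 3 signals follow a gene, they are those of the sham, the operated and the non-operated lung, in that order. The floor was 161 for sham and 159 for the operated lung. A fold is the operated over the sham signal, or the reverse where the operated lung was lower. Where 1 of both signals was at or below its floor, the floor stands in for it and the fold is a lower bound, written as at least that fold. The threshold for a difference was 2-fold. On the log2 scale, used for medians of gene groups, that is 1.

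The arrays were alike in brightness. Over the counted genes the log2 ratio had a median of -0.11, with -0.53 and 0.33 at the 25th and 75th percentiles. In the operated lung 441 of 5097 counted genes were higher by 2-fold or more, which is 8.65%, and 448 were at least 2-fold lower, which is 8.79%. These shares are the background for every count below. At 8-fold, 15 genes were higher and 15 lower. Of the higher genes, 68 had a sham signal at or below the floor, and of the lower genes 82 had an operated signal there. Genes were also ranked by the higher of their sham and operated signals and cut into 4 near equal bins. In the weakest bin 7.77% were beyond 2-fold, where the floor limits the ratio. A gene with a large difference is placed by its brighter side, which itself lowers the share in the weakest bin. In the brighter bins the share was 19.5%, 22.2% and 20.2%. The tissue label was borne out by SFTPC, the surfactant protein C gene of alveolar type 2 cells, which was among the brightest genes at signals of 22178, 23424 and 24072. The other brightest genes were ribosomal and housekeeping genes, such as the elongation factor gene EF1ALPHA at signals of 26347, 26578 and 27843 and B2M, the light chain of class I molecules, at signals of 23896, 24405 and 26568.

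**Figure D1:**
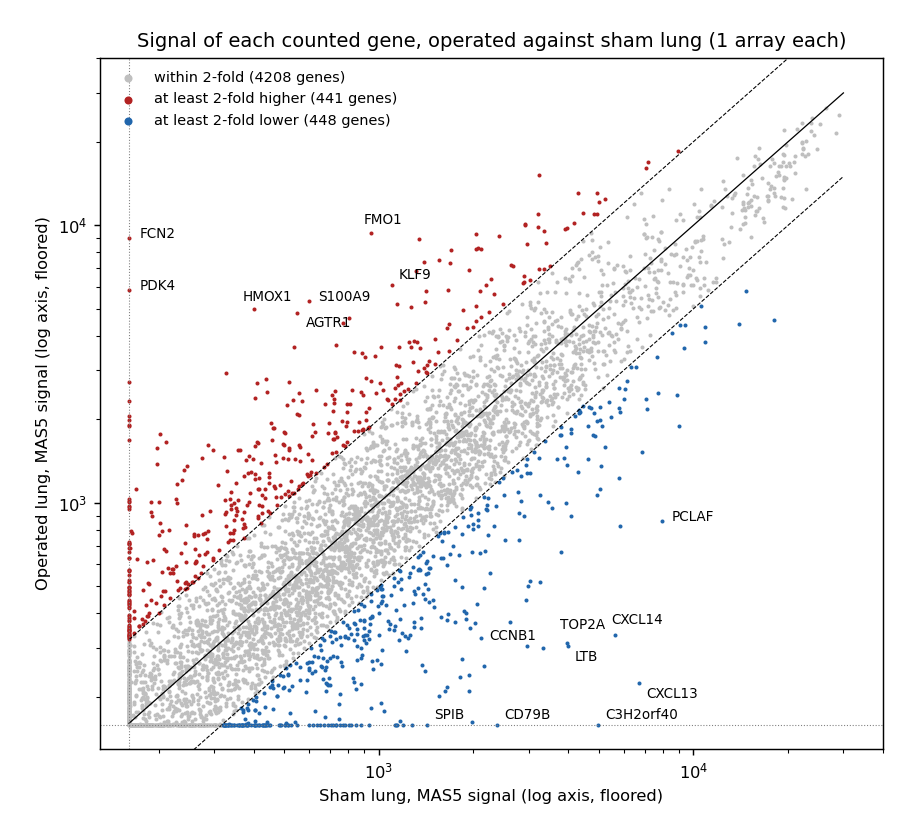
Signal of each of the 5097 counted genes on the sham array (horizontal, log axis) and on the operated lung array (vertical, log axis), with values at or below the floor set to it (dotted lines). The solid line marks equal signals and the dashed lines a 2-fold difference; 441 genes lie on or above the upper dashed line and 448 on or below the lower one.

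The only internal measure of error is how far probe sets of 1 gene lie apart, and these share both arrays and both RNA samples. For 1004 genes with at least 2 counted probe sets, the pooled SD of the log2 ratio was 0.44. The highest and lowest probe set of a gene were 0.39 apart at the median and 1.07 at the 90th percentile. The ratio of the brightest probe set, which stands for the gene, and the mean of the others had a Pearson r of 0.75 across these genes, which is a description, since genes are not independent replicates. Where the brightest probe set was beyond 2-fold, its median size was 1.38 and that of the others, taken in the same direction, 0.95. The choice of these genes by their brightest probe set itself favours a larger size for it. In 179 of these 186 genes all probe sets lay on the same side of 0, and in 79 all were beyond 2-fold. No gene had counted probe sets beyond 2-fold in opposite directions (0 of 1004). Among genes named below, CDH11, CD247, AURKA, LAMB1, CDC45, C7, GATA2 and IFI30 were beyond 2-fold on their brightest probe set and within 2-fold on another. The same held for ALAS1, LFNG, GUCY1B3, ATP5L, NDUFB3, OCLN, ODC1, SAA2, CDKN1B, TPM2, ETV5, PLN and RGS1. These genes are examples rather than a full list, and several wider gaps are given beside the gene.

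**Figure D2:**
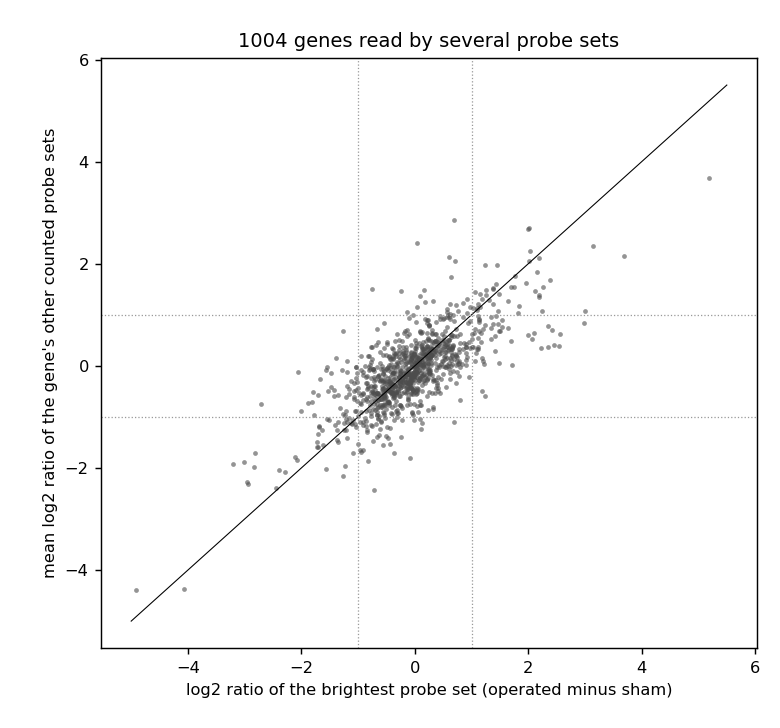
Log2 ratio of the operated lung minus sham for the brightest probe set of a gene (horizontal) and the mean of its other counted probe sets (vertical), for 1004 genes. Pearson r is 0.75, the line marks equality and dotted lines 2-fold. Where the brightest probe set was beyond 2-fold, median sizes were 1.38 for it and 0.95 for the others. Picking genes by that probe set itself favours the larger size for it.

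One Y-linked gene bears on all that follows. EIF1AY, an initiation factor encoded on the Y chromosome, had signals of 1.61, 1893 and 1646, so that it was near 0 in sham and bright in both I-R lungs, and it was the only counted gene of the Y-linked list. The male-determining gene SRY was at or below the floor on each array, with signals of 3.47, 31.5 and 19.7. The labels give no sex, and the part of a sex difference between the animals in any other result was not tested.

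Among the genes with the highest ratios were enzymes and secreted defence proteins. HMOX1, whose enzyme splits heme into biliverdin, iron and carbon monoxide, had signals of 401, 5015 and 5681 and was 12.5-fold higher. FMO1, a flavin monooxygenase that oxidises drugs, had signals of 946, 9359 and 10890.4, which made it 9.89-fold higher. DUOX2, an oxidase that makes hydrogen peroxide at the airway surface, stood at signals of 161, 1995 and 1526, with sham at the edge of the floor. S100A9, the calgranulin of neutrophils and monocytes, had signals of 598, 5335 and 6517. In each of these genes the I-R lungs lay closer to each other than to sham. The genes were picked by their distance from sham, and both I-R lungs are read against the same sham array. A deviant sham value would give the same order, so this closeness is not a separate result.

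The next genes on the higher side had varied roles. AGTR1, the angiotensin II type 1 receptor, had signals of 548, 4847 and 4442. SLPI, an airway inhibitor of neutrophil elastase, was bright in all 3 lungs at signals of 1347, 8948 and 9766 and 6.64-fold higher. SHROOM2, which shapes the apical actin network of epithelium and endothelium, had signals of 201, 1769 and 1429. PLA2G1B, a secreted phospholipase, had signals of 198, 1386 and 1386, and its operated and non-operated signals were nearly equal. ENPP1, which splits extracellular ATP and releases pyrophosphate, had signals of 538, 3641 and 3659 and was 6.77-fold higher. PAPSS2, which makes the sulfate donor of the cell, had signals of 440.2, 2517 and 2496. INMT, a methyltransferase abundant in lung, had signals of 274, 1454 and 1533 and was 5.31-fold higher. TMOD1, which caps actin filaments, had signals of 246, 1353 and 869, and its operated signal exceeded the non-operated one. TACC1, a centrosomal coiled-coil gene, was 6.57-fold higher.

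Some high genes rest on 1 of several probe sets. VSIG4, the complement receptor of tissue macrophages, had signals of 405, 2391 and 2107, but the log2 ratios of its 3 probe sets ran from 0.26 to 2.56. The range was 0.38 to 2.54 for the enteric smooth muscle actin ACTG2, and 0.56 to 2.98 for AKR1CL1, an aldo-keto reductase. FZD4, a Wnt and norrin receptor of endothelium, was steadier, from 1.69 to 2.39. TSPAN12, its partner in norrin signalling, had 1 probe set with signals of 733, 3712 and 2847 and was 5.06-fold higher.

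Genes bright in the operated lung and at or below the floor in sham give bounds. FCN2, a ficolin that starts the lectin pathway of complement, had signals of 108, 8983 and 8202 and was at least 55.9-fold higher. PDK4, the kinase that shuts off pyruvate dehydrogenase in fasting and under glucocorticoids, had signals of 137, 5835 and 6908 and was at least 36.3-fold higher. CYP7A1, which starts bile acid synthesis in the liver, had signals of 13.4, 2730.3 and 1969.9. PPBP, a platelet chemokine, had signals of 69.3, 2328 and 2712. SULT1E1, the estrogen sulfotransferase, had signals of 122, 1905 and 1436 and was at least 11.9-fold higher. UGT2B31, a glucuronosyltransferase, had signals of 36.1, 2059 and 1276. FAM107A, a glucocorticoid-induced actin-binding gene, had signals of 107, 1007 and 912, and CITED1, a transcriptional co-regulator, had signals of 71.5, 978 and 953. TRNP1 had signals of 56.8, 1678 and 1269, TSPAN2 had signals of 134, 1034 and 1118 and LONRF3 had signals of 148, 1012 and 815. ZFAND2A, a stress-induced proteasome-associated gene, had signals of 101, 949.9 and 600.2. In each of these genes both I-R lungs were well above the floor. These genes too were picked by their difference from the shared sham array, so the non-operated signals are not a separate check.

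On the lower side the largest differences were of varied genes. CXCL13, which guides B cells into follicles, had signals of 6725, 224 and 346 and was 30-fold lower. Its probe sets ranged from -4.91 to -4.40 in log2 ratio. CXCL14, another chemokine, had signals of 5625, 335 and 319 and was 16.8-fold lower. LTB, a lymphotoxin chain needed for lymphoid follicles, had signals of 3988, 304 and 314. SERPINI1, the gene of the protease inhibitor neuroserpin, had signals of 1985, 162 and 217, with the operated signal just above the floor. C3H2orf40 had signals of 4995, 129 and 137 and was at least 31.5-fold lower. In each of these genes sham stood alone on the high side. Picking genes by a high sham signal against the operated lung itself favours this order, so it is not a separate result.

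Other genes on the lower side had varied roles. CORO1A, an actin regulator of leukocytes, had signals of 5845, 825 and 1048, although its 3 probe sets ran from -3.12 to -0.30. HPSE, the heparan sulfate cutting enzyme heparanase, had signals of 2948, 449 and 358. Its log2 ratio ran from -2.72 to -0.75 over its probe sets. HTRA4, a secreted serine protease, had signals of 2607, 372 and 469. SLC15A2, a peptide transporter, had signals of 1813, 236 and 217 and was 7.69-fold lower. STK26, a kinase, had signals of 3787, 664 and 651, and HMCES, which shields abasic sites in DNA, had signals of 2108, 325 and 284. IL27RA, a receptor chain for interleukin 27, had signals of 1018, 190.1 and 279.6 and was 5.36-fold lower. Below the floor in the operated lung were ADAMDEC1, a metalloprotease-like gene of macrophages and dendritic cells, at signals of 1139, 46.2 and 22.5, and the antimicrobial beta defensin gene DEFB1 at signals of 782, 29.8 and 67.8. LY86, a partner of a Toll-like receptor homologue on B cells, had signals of 803, 144 and 209.7. ENOSF1, TMPO, CCDC50 and NPM3 were 5.78-fold lower, 5.81-fold, 5.67-fold and 5.51-fold lower, in that order. STMN2, a tubulin-binding gene of neurons, was at least 4.86-fold lower. In each gene of this paragraph the non-operated signal lay nearer to the operated than to the sham signal. The same limit holds here, since the genes were picked by their distance from the shared sham array.

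**Figure D3:**
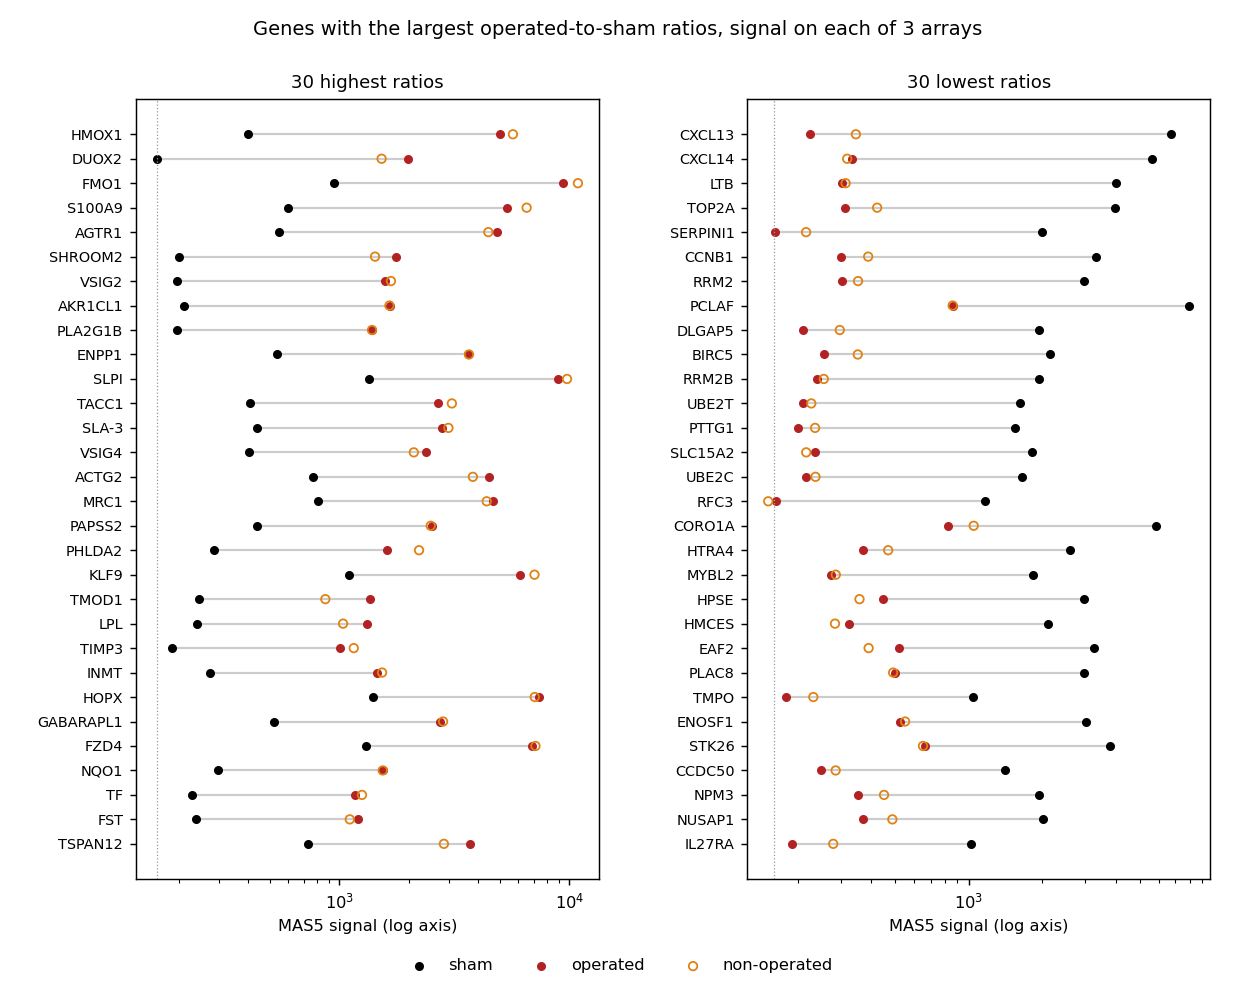
MAS5 signal (log axis) of the 30 genes with the highest and the 30 with the lowest operated-to-sham ratio among genes over the floor in both lungs, with 1 point per array and a dotted line at the sham floor. For HMOX1 the points lie at 401 (sham), 5015 (operated) and 5681 (non-operated), and for CXCL13 at 6725, 224 and 346.

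Genes were further described in 63 lists by function or cell type. They hold 1414 of the counted genes, while 227 of the higher and 277 of the lower genes are in none. Each list described here is given by its counted members, how many were beyond 2-fold, and the median log2 ratio, to be read against the background shares above and the overall median of -0.11. In bulk tissue fewer cells of a type and less RNA per cell cannot be told apart.

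**Figure D4:**
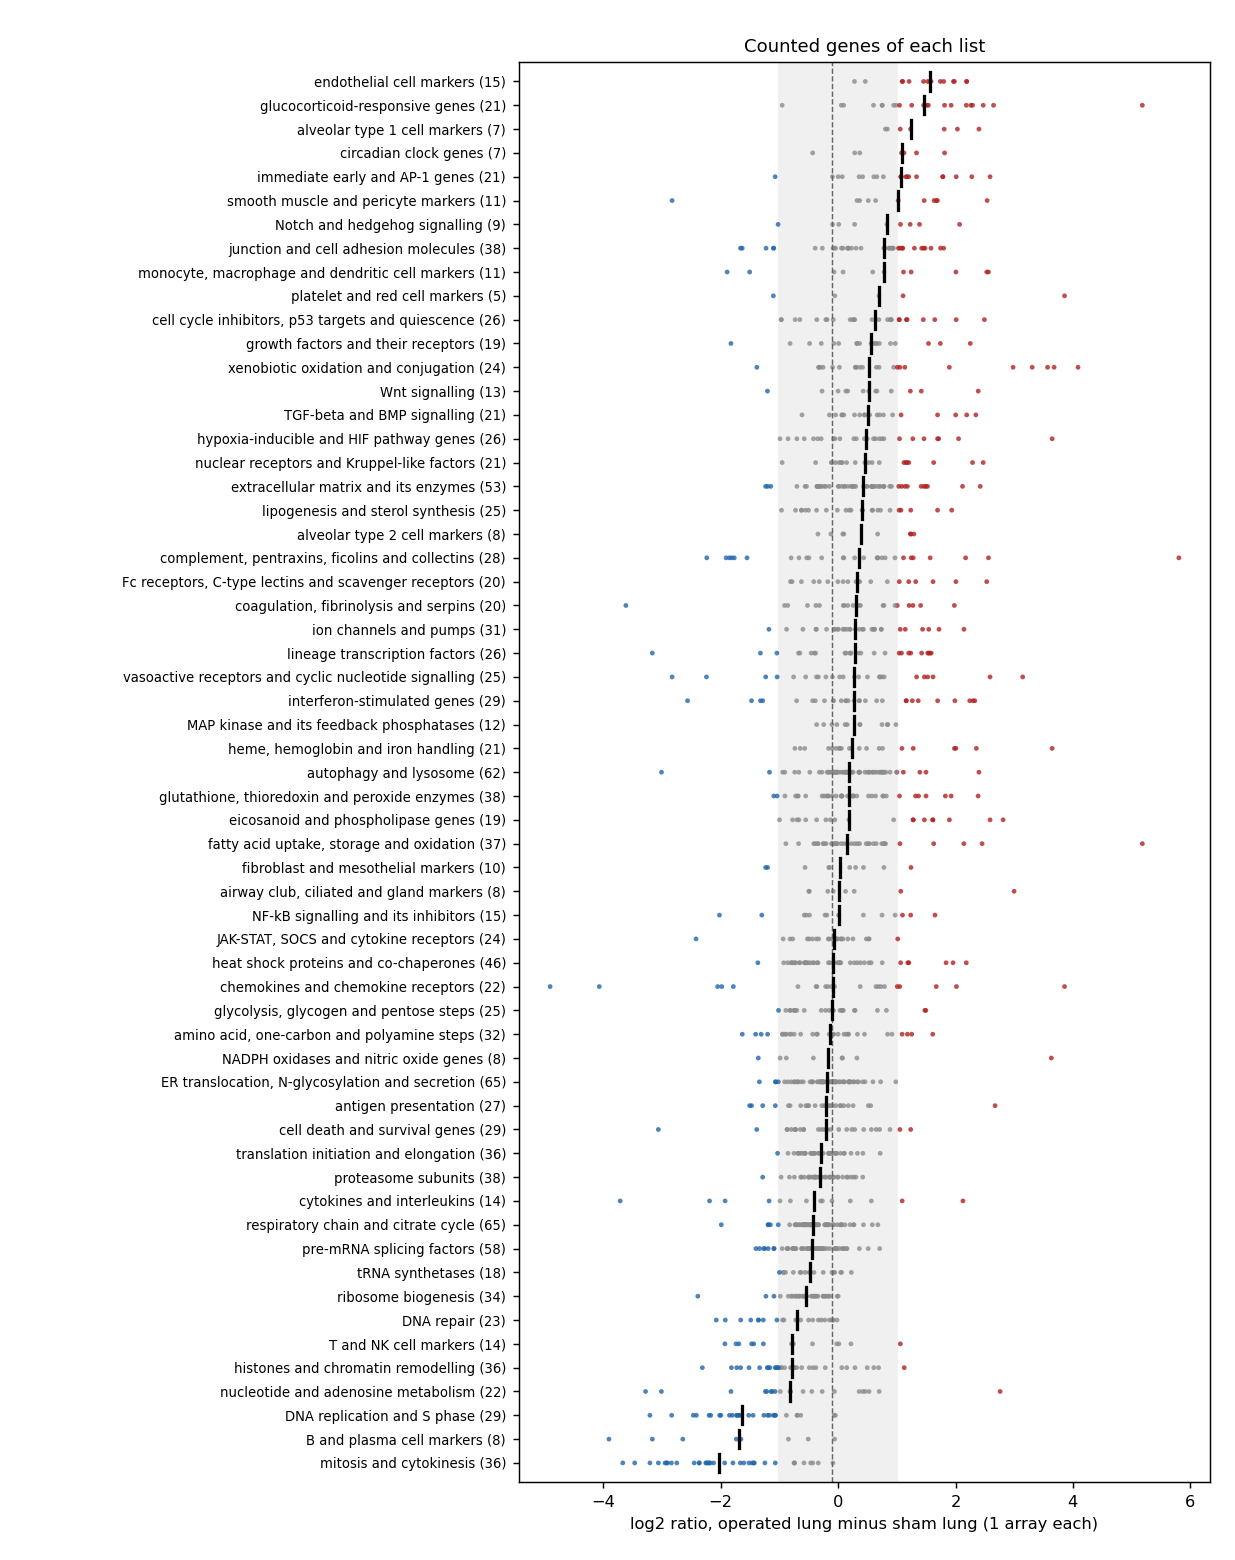
Log2 ratio of the operated lung minus sham for each counted gene (points) of the lists described here that have at least 5 counted genes, sorted by their median (black bars), with the number of counted genes in brackets; grey marks less than 2-fold and the dashed line the median of all counted genes. The medians run from -2.03 for mitosis and cytokinesis to 1.56 for endothelial cell markers.

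Cell type markers set the scene. Of 15 counted endothelial markers, 13 passed 2-fold upward and 0 downward, and the median ratio was 1.56 in log2. TMEM100, a gene induced in endothelium by bone morphogenetic proteins, had signals of 1143, 5219 and 9816, and its non-operated signal was the highest of the 3. Of receptors in the list, S1PR1, which tightens the barrier, had signals of 2113, 8247 and 7861, and TEK, the angiopoietin receptor, signals of 353, 1179 and 1003. LYVE1, a hyaluronan receptor of lymphatic vessels, had signals of 227, 1036 and 787. PECAM1, an adhesion molecule between endothelial cells, was 2.15-fold higher, with signals of 2878, 6173 and 6249.7. The junction genes ESAM and CLDN5 were at least 2.74-fold higher and 2.13-fold higher, and the adhesion and clotting factor gene VWF 2.31-fold higher. ICAM2 was 2.99-fold higher. The summed endothelial signal was 11743 in sham, 36575 in the operated and 43582 in the non-operated lung.

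The alveolar epithelium and the vessel wall followed. Alveolar type 1 markers had 5 of 7 counted genes past 2-fold on the higher side and 0 on the lower side, and their log2 ratios had a median of 1.23. HOPX, a homeodomain gene of type 1 cells, had signals of 1394, 7351 and 7070.4, and CAV2 signals of 1412, 5776 and 5324. With no floor and no filter the median of the type 1 list was 1.92. GPRC5A, a retinoic acid-induced receptor of alveolar epithelium, had signals of 724, 2535 and 2486, and the caveolar coat gene CAV1 had signals of 7184, 16896 and 16326. Of 8 counted alveolar type 2 markers, 3 passed 2-fold upward and 0 downward, and the median ratio was 0.39 in log2. SFTPB, the surfactant protein B gene, had signals of 739, 1734 and 795, so that the operated lung alone was high. SLC34A2, the phosphate transporter of type 2 cells, was 2.45-fold higher, and ETV5 2.36-fold higher, whereas SFTPC was near equal, as given above. Smooth muscle and pericyte markers had 6 of 11 counted genes past 2-fold on the higher side and 1 on the lower side, and their log2 ratios had a median of 1.02. The intermediate filament gene DES had signals of 97.2, 499 and 570.3 and the contractile regulator CNN1 had signals of 125, 519 and 427, while the pericyte gene RGS5 had signals of 1128, 107 and 149. TAGLN, TPM2 and CALD1, contractile and actin-binding genes, were 3.19-fold, 2.76-fold and 2.03-fold higher. Of 8 counted airway and gland markers, 2 passed 2-fold upward and 0 downward, and the median ratio was 0.021 in log2. VSIG2 had signals of 197, 1575 and 1676 and the mucosal trefoil peptide TFF3 signals of 1676, 3512 and 2399.6. The log2 ratio of VSIG2 was 1.07 on its other probe set. Fibroblast and mesothelial markers had 1 of 10 counted genes past 2-fold on the higher side and 2 on the lower side, and their log2 ratios had a median of 0.024. DPT, a dermatopontin of the matrix, was 2.36-fold higher, while LUM and FBLN1, matrix genes of fibroblasts, were 2.36-fold and 2.30-fold lower. Under cyclic loess scaling the median of the fibroblast list was -0.013 and that of the airway list -0.0032, so neither has a settled direction.

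Leukocyte markers went both ways. Of 11 counted monocyte, macrophage and dendritic cell markers, 5 passed 2-fold upward and 2 downward, and the median ratio was 0.78 in log2. MRC1, the mannose receptor, had signals of 803, 4645 and 4369 and CD163, which takes up hemoglobin bound to haptoglobin, signals of 2069.5, 8316 and 8257. C1QA and C1QC, chains of the first complement component made by macrophages, were 2.37-fold and 2.16-fold higher. The costimulator CD86 had signals of 758, 267 and 304. CHI3L1, a chitinase-like protein of macrophages and epithelium, had signals of 3566, 961 and 1991, with the operated lung lowest. Neutrophil and granule markers had 3 of 4 counted genes past 2-fold on the higher side and 0 on the lower side, and their log2 ratios had a median of 1.58. S100A8, the partner of S100A9, had signals of 178, 484 and 826 and S100A12 signals of 275, 906 and 899, so that all the calgranulins of the list were lowest in sham. These 3 calgranulins, which monocytes share, were the only members past 2-fold. The other counted member had a log2 ratio of -0.11, and 8 members were on the array. The neutrophil median was 0.57 with the floor at the 75th percentile. Of 2 counted mast cell and basophil markers, 2 passed 2-fold upward and 0 downward, and the median ratio was 1.13 in log2. The transcription factor GATA2 had signals of 347, 798 and 1186, and MS4A2, the IgE receptor chain, signals of 173, 361 and 602. Their median was 0.39 with that floor. Platelet and red cell markers had 2 of 5 counted genes past 2-fold on the higher side and 1 on the lower side, and their log2 ratios had a median of 0.69. ALAS2, the heme synthesis enzyme of red cell precursors, had signals of 132, 346 and 372, and ITGB3, the fibrinogen receptor chain of platelets, was at least 2.15-fold lower. With the floor at the 25th percentile the median of this short list was -0.056, so it has no settled direction.

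Most lymphocyte markers were lower in the operated lung. Of 8 counted B and plasma cell markers, 0 passed 2-fold upward and 5 downward, and the median ratio was -1.70 in log2, and all 8 were below 0. CD79B, a chain of the B cell receptor, had signals of 2378, 86.6 and 73.1, and the B cell transcription factor SPIB signals of 1425, 129.5 and 131. BLNK, an adaptor of that receptor, had signals of 4294, 1290.1 and 1070.2, and EAF2, an elongation factor of germinal centre B cells, signals of 3255, 519.8 and 390.1. TNFRSF17, a receptor of plasma cells, was 3.15-fold lower. The plasma cell genes JCHAIN and XBP1 differed less, at signals of 18207, 12788 and 12962 and signals of 4912, 4713 and 4819. The summed signal of the B and plasma cell list was 36191 in sham, 20363 in the operated and 20143 in the non-operated lung. T and NK cell markers had 1 of 14 counted genes past 2-fold on the higher side and 6 on the lower side, and their log2 ratios had a median of -0.78. LCK, the kinase of the T cell receptor, had signals of 1239, 325 and 383, and LAT, its membrane adaptor, signals of 541, 162 and 194. The receptor chains CD3G, CD247 and CD3D were 3.23-fold lower, at least 2.78-fold lower and at least 2.71-fold lower. The exception was GNLY, the cytolytic granulysin, at signals of 130.2, 335 and 485. CD4, CTLA4, CCR7 and PRF1 were at or below the floor in both lungs. With no floor and no filter the T and NK median was -1.25. The summed T and NK signal was 7873 in sham, 4272 in the operated and 4563 in the non-operated lung.

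Genes that copy and divide the genome were lower in the operated lung, as the lymphocyte markers were. Of 36 counted mitosis and cytokinesis genes, 0 passed 2-fold upward and 28 downward, and the median ratio was -2.03 in log2. TOP2A, which untangles chromosomes, had signals of 3975, 312 and 423. CCNB1, the cyclin that drives entry into mitosis, had signals of 3327, 301 and 388 and was 11.1-fold lower. DLGAP5, a spindle protein, had signals of 1936, 209.7 and 297, and BIRC5, the passenger protein survivin, signals of 2153, 258 and 352. PTTG1, which holds back separase, had signals of 1550.3, 201 and 236. MYBL2, a transcription factor of late cell cycle genes, had signals of 1837, 273 and 286. NUF2, part of the kinetochore, was at or below the floor in both I-R lungs with signals of 1137, 82.8 and 98.4. CCNB2, a partner of CCNB1, was at least 7.51-fold lower, and CDCA3 at least 5.15-fold lower. UBE2C, which tags cyclins for destruction, was 7.59-fold lower, and UBE2T and CDKN3, outside the list, were 7.75-fold lower and at least 5.85-fold lower. The spindle genes NUSAP1 and CDC20 were 5.48-fold lower and at least 4.35-fold lower, and the kinases MELK, AURKA and AURKB 5.17-fold lower, at least 3.46-fold lower and at least 2.71-fold lower. In the mitosis list all 36 counted genes had ratios below 0. The median of this list was -1.24 with the floor at the 75th percentile.

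DNA replication and S phase genes had 0 of 29 counted genes past 2-fold on the higher side and 23 on the lower side, and their log2 ratios had a median of -1.64, and all 29 were below 0. Under the same higher floor the median was -0.89, which is within 2-fold. PCLAF, a clamp-associated factor, was bright in sham at signals of 7971, 863 and 860.4, and the sliding clamp PCNA itself had signals of 5829, 2134 and 2318. Of the replicative helicase, MCM2 had signals of 879, 155 and 211, MCM3 signals of 747, 166 and 187 and MCM5 signals of 847, 138 and 144. RFC3, a clamp loader subunit, had signals of 1166, 163 and 152, and FEN1, which trims Okazaki fragments, signals of 1120.0, 349 and 368. ORC1 and CDC45, which license and start replication origins, were at least 4.59-fold lower and 3.995-fold lower, and RPA2, which binds single strands, 4.05-fold lower. Of 23 counted DNA repair genes, 0 passed 2-fold upward and 8 downward, and the median ratio was -0.70 in log2, again with all 23 below 0. RAD51AP1, a partner of the recombinase, had signals of 669, 112 and 119, and the checkpoint kinase CHEK1 signals of 502, 135 and 91.8. RAD54L, FANCD2 and CHEK2 were at least 3.79-fold lower, 2.42-fold and 2.56-fold lower, and NEIL1, a glycosylase of oxidised bases, 2.81-fold lower. Nucleotide and adenosine genes had 1 of 22 counted genes past 2-fold on the higher side and 8 on the lower side, and their log2 ratios had a median of -0.81. RRM2, the regulated subunit of ribonucleotide reductase, had signals of 2962, 305 and 353, and its stress-induced relative RRM2B signals of 1938, 240.3 and 256. The thymidylate synthase TYMS was at least 2.32-fold lower and the purine salvage gene HPRT1 2.36-fold lower. NME1 and RRM1 were 3.55-fold and 2.21-fold lower. The exception on the higher side was ENPP1, given above. The part of the lower lymphoid markers in the lower cell division genes was not tested.

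Chromatin genes were mostly lower too, with 29 ratios below 0. Of 36 counted histone and chromatin genes, 1 passed 2-fold upward and 13 downward, and the median ratio was -0.79 in log2. EZH2, the histone methyltransferase of Polycomb, had signals of 1899, 382 and 364, and DNMT1, the maintenance DNA methyltransferase, signals of 5248, 1584 and 1562. The histone variant gene H2AFZ had signals of 14653, 5799 and 5995, and the nucleosome-binding gene HMGN1 signals of 13942, 4409 and 4400.4. HMGA1 was 3.53-fold lower. The exception beyond 2-fold was SMARCD3, a remodelling subunit of muscle, with signals of 95.3, 351 and 462. Brakes of the cell cycle leaned to the other side, though most were within 2-fold. Inhibitors, p53 targets and quiescence genes had 8 of 26 counted genes past 2-fold on the higher side and 0 on the lower side, and their log2 ratios had a median of 0.64. Of the 26, 18 were within 2-fold and 8 were below 0. With the floor at the 25th percentile the median was 0.28. CDKN1A, the p21 inhibitor of cyclin-dependent kinases, had signals of 462, 1863 and 2017, and CDKN1B, the p27 inhibitor, signals of 1329.9, 2977 and 2512. PHLDA2, an imprinted growth restraint, had signals of 286, 1611 and 2219.9. PLK2 was 3.13-fold higher, GADD45B 2.73-fold higher, and the antiproliferative genes BTG2 and TOB1 2.06-fold and 2.06-fold higher. GADD45A went the other way without reaching 2-fold, at signals of 3056, 1562 and 2255.

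Genes for handling heme and iron included some of the largest differences, though most members were within 2-fold. Of the heme and iron list, 6 of 21 counted members passed 2-fold upward and 0 downward, around a median log2 ratio of 0.23. Besides HMOX1 and CD163, the haptoglobin gene HP had signals of 2324, 5641 and 6396, and transferrin, TF, signals of 229, 1171 and 1254. The log2 ratio of TF was 0.36 on its other probe set. SLC11A1, the iron and manganese exporter of phagosomes, had signals of 98.9, 634 and 698 and was at least 3.95-fold higher. ALAS1, which begins heme synthesis in most tissues, was 2.12-fold higher. FTH1, the ferritin heavy chain, was among the brightest genes and near equal at signals of 19378, 22145 and 22384.

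Of the glutathione, thioredoxin and peroxide enzymes, 38 were counted, 7 past 2-fold upward and 2 downward, and the median of their log2 ratios was 0.18. NQO1, a quinone reductase driven by NRF2, had signals of 297, 1551 and 1543 and was 5.22-fold higher. GCLC, the rate-limiting step of glutathione synthesis, had signals of 502, 1781 and 1417. TXNRD1, which reduces thioredoxin, had signals of 1507, 3894 and 3029, and PRDX6, a lung peroxiredoxin with phospholipase activity, signals of 3901, 9727 and 9170.3. The metal-binding gene MT-2B had signals of 549, 2084 and 1413. PRDX4, the peroxiredoxin of the endoplasmic reticulum, was 2.14-fold lower with signals of 4716, 2204 and 2282, and GSTA4 was at least 2.06-fold lower. TXNIP, which binds thioredoxin and responds to glucose, was 2.06-fold higher. Among NADPH oxidase and nitric oxide genes, 1 of 8 counted members passed 2-fold upward and 1 downward, around a median log2 ratio of -0.18. DUOX2 was the higher one, and the lower one was RAC2, the GTPase that activates the oxidase of phagocytes, at signals of 658, 256 and 199. The median of this list was 0.02 with the floor at the 75th percentile.

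Enzymes of foreign compounds and steroids included several genes given above, FMO1, CYP7A1, UGT2B31, SULT1E1 and AKR1CL1. Of the xenobiotic list, 24 were counted, 9 past 2-fold upward and 1 downward, and the median of their log2 ratios was 0.53. POR, which feeds electrons to cytochromes P450, had signals of 215, 799 and 898. CBR2, a lung carbonyl reductase, had signals of 1424, 3129 and 3909, and MAOA, which breaks down amines, signals of 1238, 2567 and 2683. EPHX1, an epoxide hydrolase, was 2.01-fold higher. CYP3A29 went the other way, from 415 in sham to below the floor in both I-R lungs.

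Fuel genes showed a few large differences within lists whose members were mostly within 2-fold. Of the fatty acid list, 5 of 37 counted members passed 2-fold upward and 0 downward, around a median log2 ratio of 0.16. After PDK4 came LPL, which frees fatty acids from lipoproteins, with signals of 240.0, 1313 and 1038 and a range of 0.41 to 2.45 in log2 ratio over its probe sets. PNPLA2, the first lipase of stored fat, had signals of 509.6, 2249 and 2293. PPARG, a nuclear receptor of fat cells and alveolar macrophages, had signals of 72.3, 496 and 504. FABP3, a fatty acid carrier, had signals of 3351, 6953 and 4431. Of the lipogenesis and sterol list, 25 were counted, 5 past 2-fold upward and 0 downward, and the median of their log2 ratios was 0.41. ABCA1, which exports cholesterol, had signals of 200.1, 765 and 739.8, and INSIG2, which retains the sterol sensor in the endoplasmic reticulum, signals of 501, 1620.2 and 992. SCD5, a desaturase, MYLIP, which degrades the LDL receptor, and CH25H, which makes 25-hydroxycholesterol, were at least 2.36-fold higher, 2.10-fold and 2.05-fold higher. Among glycolysis and glycogen genes, 2 of 25 counted members passed 2-fold upward and 1 downward, around a median log2 ratio of -0.099. FBP1, of gluconeogenesis, had signals of 235, 663 and 687, and the hexokinase of leukocytes HK3 signals of 279.5, 778 and 857. PGAM2, the phosphoglycerate mutase of muscle, was at least 2.02-fold lower. The summed glycolysis signal was 68137 in sham, 47975 in the operated and 52732 in the non-operated lung, with 15 counted genes below 0 and 10 above. The glycolysis enzyme gene GAPDH had a log2 ratio of -0.74 on its brightest probe set and a mean of -1.46 over its other counted ones. For amino acid, one-carbon and polyamine genes, 32 were counted, 4 past 2-fold upward and 4 downward, and the median of their log2 ratios was -0.13. OAT, which joins ornithine and glutamate metabolism, had signals of 1246, 3808 and 3679, and glutamine synthetase, GLUL, signals of 5229.9, 12468 and 14447. On the lower side were ODC1 and SRM, enzymes of polyamine synthesis, at signals of 3947, 1589 and 1493 and signals of 682, 257 and 291. OAZ1, the antizyme that destroys the ODC1 protein, had signals of 7088, 16060.1 and 15534. The 2 probe sets of OAZ1 disagreed in direction, with log2 ratios of -0.49 and 1.18. The folate enzyme MTHFD1 was 3.10-fold lower. KMO, of tryptophan breakdown, was 2.30-fold lower, and CTH, which makes cysteine, 2.13-fold higher.

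Mitochondrial and gene expression genes are read against the 57.7% of all counted genes that had a ratio below 0. Few of them passed 2-fold. At least 2-fold lower were 7 of 58 splicing factors and 3 of 34 ribosome biogenesis genes. These counts lie not far from the background of 8.79% and are not read as a result about either group. By ratios below 0, the respiratory chain, splicing and ribosome biogenesis lists lay above 57.7%, as given below. Of 65 counted respiratory chain and citrate cycle genes, 0 passed 2-fold upward and 5 downward, and the median ratio was -0.42 in log2, and 54 were below 0. ATP5I, an ATP synthase subunit, had signals of 847, 213 and 370.4, and MDH1, the cytosolic malate dehydrogenase, signals of 4084, 1788 and 1992. The other members beyond 2-fold were ATP5L, NDUFB3 and FH, at 2.29-fold, 2.22-fold and 2.03-fold lower. Splicing factors had 0 of 58 counted genes past 2-fold on the higher side and 7 on the lower side, and their log2 ratios had a median of -0.44, with 49 below 0. SNRPG, a core protein of the spliceosome, had signals of 5783, 2191 and 2186. Its relatives SNRPD1, SNRPA1 and SNRPA were 2.53-fold, 2.42-fold and 2.37-fold lower. SNRPA1 had log2 ratios of -1.27 and 0.68 on its 2 probe sets, so its direction is not settled. Of 34 counted ribosome biogenesis genes, 0 passed 2-fold upward and 3 downward, and the median ratio was -0.54 in log2, with 33 below 0. FBL, which methylates ribosomal RNA, had signals of 2205, 939.6 and 1015, and the nucleolar gene LYAR signals of 1369, 261 and 456. Translation factors had 0 of 36 counted genes past 2-fold on the higher side and 1 on the lower side, and their log2 ratios had a median of -0.29. Its lower member was EIF3I, a scaffold subunit of initiation, which was 2.05-fold lower. Of 18 counted genes of tRNA charging, 0 passed 2-fold upward and 1 downward, and the median ratio was -0.49 in log2. The lower one was AIMP2, a scaffold of the synthetase complex, at signals of 457, 228 and 275. Proteasome genes had 0 of 38 counted genes past 2-fold on the higher side and 1 on the lower side, and their log2 ratios had a median of -0.30. PSMB8, a subunit of the immunoproteasome, had signals of 4612, 1892 and 2534. Of 65 counted genes of secretion and folding in the endoplasmic reticulum, 0 passed 2-fold upward and 4 downward, and the median ratio was -0.19 in log2. PDIA6, a disulfide isomerase, had signals of 10911, 4306 and 5354, and its bright sham signal was the highest of the 3. SDF2L1, SRP54 and DNAJB11 were 2.10-fold, 2.09-fold and 2.03-fold lower.

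Chaperones and autophagy genes were mixed. Heat shock genes and co-chaperones had 6 of 46 counted genes past 2-fold on the higher side and 1 on the lower side, and their log2 ratios had a median of -0.082. FKBP5, a co-chaperone of the glucocorticoid receptor, had signals of 2040.5, 9269 and 10385. CRYAB, a small heat shock protein of muscle, had signals of 204, 794 and 1032, and DNAJB4 signals of 1931, 6906 and 6570.4. BAG3, which links chaperones to autophagy, had signals of 1174, 2706 and 2808. HSPA14, a chaperone bound to ribosomes, was 2.58-fold lower. HSPA6, a strictly heat-induced chaperone, was 2.28-fold higher, and DNAJA4 2.09-fold higher. Of 62 counted autophagy and lysosome genes, 5 passed 2-fold upward and 2 downward, and the median ratio was 0.19 in log2. GABARAPL1, which coats autophagosomes, had signals of 519, 2735 and 2823, and the cargo receptor SQSTM1 signals of 2271, 6411 and 6247. PINK1, a mitophagy kinase, had signals of 513, 1108 and 1469. MAP1LC3A, another coat gene, was higher in the operated than in the non-operated lung, at signals of 219, 576 and 327. GUSB, a lysosomal glucuronidase, was 2.25-fold lower, and TFE3, a factor of lysosomal genes, 2.002-fold higher. ATP6V1C2, a proton pump subunit, was clear in sham and below the floor in both I-R lungs at signals of 1278, 3.84 and 23.0.

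Genes known to respond to glucocorticoids stood high in the operated lung. Of the glucocorticoid list, 21 were counted, 13 past 2-fold upward and 0 downward, and the median of their log2 ratios was 1.46. KLF9, a Kruppel-like repressor, had signals of 1101, 6104 and 7051, and KLF15, its metabolic relative, signals of 163, 795 and 829. TSC22D3, known as GILZ, had signals of 3363, 9577 and 9773. CEBPD, an acute phase transcription factor, had signals of 1699, 8147 and 8940.1, and CEBPB signals of 2954, 8578 and 8341. SGK1, a kinase that raises sodium transport, had signals of 2624, 7203 and 6935. NR3C1, the receptor itself, lay lower on its brightest probe set without reaching 2-fold, at signals of 633, 327 and 378. That probe set had a log2 ratio of -0.95, but the mean over its other counted probe sets was 0.20, so its direction is not settled. Of the clock genes, 4 of 7 counted members passed 2-fold upward and 0 downward, around a median log2 ratio of 1.08. PER1, also in the glucocorticoid list, had signals of 1664, 5849 and 7299.7, CRY2 signals of 229.6, 485 and 524 and RORA signals of 146, 349.6 and 392. The labels used here give no hour of sampling. Of nuclear receptors and Kruppel-like factors, 21 were counted, 7 past 2-fold upward and 0 downward, and the median of their log2 ratios was 0.45. All of these members are given in this or another paragraph: KLF9, KLF15, PPARG, KLF4, NR4A2, NR4A3 and RORA.

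Of the immediate early genes, 12 of 21 counted members passed 2-fold upward and 1 downward, around a median log2 ratio of 1.07. JUN, a subunit of AP-1, had signals of 2906, 9996 and 10088, and EGR1 signals of 2029.8, 8185 and 9164. CYR61, a matrix signal of stretch and flow, had signals of 1549, 7512 and 7552, with near equal I-R lungs. ATF3, a stress-induced repressor, was 3.45-fold higher, and NFIL3, also a clock gene, 2.52-fold higher. FOSL2 and IER2 were at least 2.10-fold higher and 2.10-fold higher. PTGS2, the inducible cyclooxygenase, had signals of 142, 966 and 1188. KLF4, a flow-induced factor of endothelium, was higher in the operated lung and higher again in the non-operated one, at signals of 1546, 3490.3 and 5858. The orphan receptors NR4A2 and NR4A3 had the same order, at signals of 138, 357 and 625 and signals of 338, 777 and 1449. RGS1, a brake on chemokine signalling in lymphocytes, had signals of 1659, 788 and 949.7. Of MAP kinase genes and their phosphatases, 12 were counted, 0 past 2-fold upward and 0 downward, and the median of their log2 ratios was 0.26. DUSP1 came nearest, at signals of 4730.2, 9361 and 9731.

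Signalling between cells was read through ligands, receptors and targets. Of the Notch and hedgehog genes, 4 of 9 counted members passed 2-fold upward and 1 downward, around a median log2 ratio of 0.83. JAG1, a Notch ligand, had signals of 836, 3508 and 3076, and DLL4, the endothelial ligand, signals of 226, 590.3 and 433. JAG1 had a log2 ratio of 0.53 on its other probe set. The receptor NOTCH4 had signals of 263, 616 and 817 and the target HES1 signals of 790.4, 1650.3 and 1676. LFNG, which adds sugar to Notch, was 2.03-fold lower. With the floor at the 25th percentile the median of the list was 0.35. Of the Wnt genes, 13 were counted, 3 past 2-fold upward and 1 downward, and the median of their log2 ratios was 0.52. FZD5 had signals of 539.6, 1441 and 1465, the secreted inhibitor SFRP1 signals of 279.5, 656 and 656, and the lymphoid effector LEF1 signals of 642, 279 and 323. The probe sets of SFRP1 disagreed in direction, with log2 ratios of -0.59 and 1.23. Of the TGF-beta and BMP genes, 5 of 21 counted members passed 2-fold upward and 0 downward, around a median log2 ratio of 0.50. FST, the activin trap follistatin, had signals of 237, 1206 and 1109.8, and ACVR1, a BMP type I receptor, signals of 1270.0, 5090.2 and 3653. TGFB2 had signals of 91.7, 519.6 and 299.6, and ID1, a direct target of BMP receptors, signals of 1169, 2459 and 4134. The log2 ratio of FST was 0.77 on its other probe set and that of TGFB2 0.48. Of growth factors and receptors, 19 were counted, 3 past 2-fold upward and 1 downward, and the median of their log2 ratios was 0.56. BDNF, a neurotrophin also made in smooth muscle, had signals of 164, 781 and 804, and EFNB2, the arterial ephrin, signals of 134, 467 and 611. PDGFRL was 3.55-fold lower.

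Vessel tone, channels and fluid transport were covered by a pair of lists. Of the vasoactive and cyclic nucleotide genes, 6 of 25 counted members passed 2-fold upward and 4 downward, around a median log2 ratio of 0.28. RAMP2, the partner of the adrenomedullin receptor, had signals of 791, 2277 and 3169, and GUCY1B3, a chain of the nitric oxide receptor, signals of 561, 1415 and 1350.0. RGS4, a brake on G protein signalling in smooth muscle, had signals of 1896, 400.2 and 505. P2RY12, an ADP receptor, was 2.35-fold lower, and PDE4B, which breaks down cyclic AMP in leukocytes, 2.06-fold lower. Of channels and pumps, 31 were counted, 6 past 2-fold upward and 1 downward, and the median of their log2 ratios was 0.30. GJA5 and GJA4, the connexins of arterial endothelium, had signals of 392, 1289 and 1008 and signals of 214, 581 and 775. AQP1, the water channel of lung capillaries, had signals of 2111, 4665 and 6191, and AQP5, that of type 1 cells, signals of 173, 359 and 447. PLN, which restrains the calcium pump of muscle, had signals of 91.5, 468 and 489. ATP10A, a lipid flippase, was at least 4.42-fold higher, and CLIC1, an intracellular channel gene, 2.27-fold lower. Of the eicosanoid genes, 8 of 19 counted members passed 2-fold upward and 0 downward, around a median log2 ratio of 0.18. PTGS1, the constitutive cyclooxygenase, had signals of 335, 1029 and 1193, and ALOX5AP, which presents arachidonate to 5-lipoxygenase, signals of 286, 792 and 839. PTGR1, which inactivates leukotriene B4 and prostaglandins, had signals of 557, 2072 and 1808. PLA2G16, a phospholipase, was 3.05-fold higher, and PTGFR, the prostaglandin F receptor, at least 2.43-fold higher. The median of the eicosanoid list was 0.70 with a pseudocount of 50 in place of the floor.

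Structural genes included several of the vessel wall. Of junction and adhesion molecules, 38 were counted, 11 past 2-fold upward and 5 downward, and the median of their log2 ratios was 0.78. CDH5, the cadherin between endothelial cells, had signals of 974, 3388 and 3739.6, and OCLN, occludin of tight junctions, signals of 693, 1936 and 1951. MCAM, an adhesion molecule of vessels, had signals of 372, 1245 and 1856. ICAM1, which arrests leukocytes, had signals of 1852, 4968 and 5158, whereas VCAM1, another such receptor, had signals of 7706, 2482 and 2422. MADCAM1, the addressin of mucosal lymphoid tissue, had signals of 339, 6.72 and 45.7, and CDH11, a fibroblast cadherin, signals of 2099, 663 and 646. VCL, which ties adhesions to actin, was 2.46-fold higher, PARVA 2.08-fold higher and PKP4 at least 2.04-fold higher, while CLDN10, a claudin of airway epithelium, was 2.34-fold lower. With the floor at the 25th percentile the median of the adhesion list was 0.31. Of matrix genes and their enzymes, 10 of 53 counted members passed 2-fold upward and 3 downward, around a median log2 ratio of 0.43. ADAMTS1, a protease that cuts versican, had signals of 1679, 7295 and 10569, and TIMP3, an inhibitor bound to matrix, signals of 188, 1007 and 1155. TIMP3 had a log2 ratio of 0.69 on its other probe set. LAMB1, a laminin chain, had signals of 1355, 3609.6 and 3779, and COL4A2, a basement membrane collagen, signals of 626, 1797 and 1903. HYAL2, which cuts hyaluronan, was 2.81-fold higher, COL15A1 2.20-fold higher and SPARCL1 2.27-fold higher. TNC, a matrix protein of wounds, was 2.05-fold higher. TIMP1, the soluble inhibitor, was lower in the operated lung alone, at signals of 1152, 520.0 and 1319. COL5A3, a fibrillar collagen chain, was higher there alone, at signals of 185, 392 and 184.

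Immune genes lay on both sides. Of the complement and pentraxin list, 28 were counted, 7 past 2-fold upward and 6 downward, and the median of their log2 ratios was 0.36. CFP, which stabilises the alternative pathway, had signals of 243, 719 and 719.8. C4A, of the classical pathway, had signals of 5809.7, 1232 and 2108, and CLU, the inhibitor clusterin, signals of 5096, 1357 and 1793. CR1, a complement receptor, had signals of 8845, 2447 and 1965, and C7 signals of 627, 178 and 242. SAA2, an acute phase apolipoprotein, had signals of 3443, 1010.1 and 1032. ITIH3, a hyaluronan-binding serum protein, was at least 4.51-fold higher, and C9, of the membrane attack pore, had signals of 1434, 489 and 858. Of chemokines and their receptors, 5 of 22 counted members passed 2-fold upward and 5 downward, around a median log2 ratio of -0.088. CCL4, which attracts monocytes and T cells, had signals of 409, 1655 and 1636, and one of its receptors, CCR1, signals of 469, 1494 and 1103. CCL2, the main monocyte attractant, was lower, at signals of 3950.3, 999 and 1197. CXCL12, a stromal chemokine, had signals of 1655, 399 and 446, and CCL19, which draws T cells to lymphoid tissue, signals of 2527, 733 and 617. The log2 ratio of CXCL12 ran from -2.05 to -0.13 over its probe sets. CCL28, a mucosal chemokine, was at least 2.07-fold higher, and CCL3L1 at least 2.01-fold higher. Of cytokines, 14 were counted, 2 past 2-fold upward and 4 downward, and the median of their log2 ratios was -0.42. TNFSF13, a survival factor of plasma cells known as APRIL, had signals of 229, 999 and 1018, and IL18 signals of 2799.5, 737 and 662. IL16, a lymphocyte cytokine, had signals of 1866, 409 and 518. IL15, which sustains NK cells, was 2.13-fold higher, and the inhibitory IL10 at least 2.26-fold lower.

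Of interferon-stimulated genes, 9 of 29 counted members passed 2-fold upward and 4 downward, around a median log2 ratio of 0.27. RSAD2, the antiviral viperin, had signals of 200.4, 1007 and 669, and OAS1, which activates an RNase, signals of 188, 926 and 842. IFIT2 had signals of 189.8, 898 and 718 and ISG15, a ubiquitin-like modifier, signals of 380.1, 979 and 1038. The log2 ratio of IFIT2 ran from near 0 to 2.24 over its 3 probe sets. IFIT3, IFIT1 and IRF7 were 3.97-fold higher, 3.24-fold higher and at least 2.40-fold higher. Lower members were the proteasome gene PSMB8, given above, and genes of lymphoid and antigen-presenting cells, IRF8 at signals of 4957, 1979.9 and 1823, IFI30 at signals of 4857, 1747 and 1494 and PLAC8 at signals of 2970.1, 502 and 491. Of NF-kB and Toll-like receptor genes, 15 were counted, 3 past 2-fold upward and 2 downward, and the median of their log2 ratios was 0.011. TLR4, the endotoxin receptor, had signals of 1158, 3635 and 2666, and TLR2 signals of 503, 1075 and 1322. TLR6, its partner, was at least 2.46-fold lower. TNFAIP8 was 4.06-fold lower at signals of 2262, 557 and 507. The median of this list changed sign with the scaling, from -0.027 under cyclic loess to 0.028 under median centring. Of JAK-STAT genes and cytokine receptors, 1 of 24 counted members passed 2-fold upward and 1 downward, around a median log2 ratio of -0.067. The lower one was IL27RA, given above, and the higher one SOCS6, at signals of 256, 517 and 457. With no floor the median was 0.013, so this list has no settled direction. Of Fc, lectin and scavenger receptors, 20 were counted, 6 past 2-fold upward and 0 downward, and the median of their log2 ratios was 0.33. LGALS3, a macrophage galectin, had signals of 3208, 9839 and 8145, and TYROBP, the adaptor of activating receptors, signals of 1141, 2853 and 2884. CLEC3B and FCER1G were 2.30-fold and 2.06-fold higher. Of antigen presentation genes, 1 of 27 counted members passed 2-fold upward and 4 downward, around a median log2 ratio of -0.21. SLA-3, a pig class I heavy chain, had signals of 437, 2786 and 2979. Class I chains are near copies of each other and differ between animals, so a probe set may read allele as well as level. CIITA, the master factor of class II genes, had signals of 369.9, 176 and 226.

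Coagulation, oxygen sensing, cell death and lineage genes were described last. Of coagulation genes and serpins, 20 were counted, 5 past 2-fold upward and 1 downward, and the median of their log2 ratios was 0.30. That median was 0.086 with no floor and no filter. THBD, the thrombin receptor thrombomodulin, had signals of 882, 3480.0 and 5247, and F3, tissue factor, signals of 924, 1856 and 1191. F3 stood at the edge of 2-fold, and its operated signal exceeded the non-operated one. ANXA5, which covers exposed phosphatidylserine, had signals of 4934, 13073 and 13159.7. ANXA2, a receptor for plasminogen, was 2.42-fold higher. Of the hypoxia list, 7 of 26 counted members passed 2-fold upward and 0 downward, around a median log2 ratio of 0.47. With the floor at the 75th percentile the median of the hypoxia list was 0.091. EPAS1, the HIF subunit of endothelium, had signals of 720.1, 2361 and 2197, and STC1, a secreted stanniocalcin, signals of 159.7, 666 and 741. LOX, which cross-links collagen, had signals of 186, 512 and 414. MXI1, an antagonist of MYC, was 2.42-fold higher. Of cell death genes, 29 were counted, 2 past 2-fold upward and 2 downward, and the median of their log2 ratios was -0.21. GSDMD, the pore protein of pyroptosis, had signals of 181, 427 and 357, and TNFRSF1A, a receptor of tumour necrosis factor, signals of 893, 1851 and 1765. CASP2 was 2.62-fold lower at signals of 836, 319.7 and 405. Its other probe set gave a log2 ratio of 0.15, on the other side of 0. Of lineage transcription factors, 9 of 26 counted members passed 2-fold upward and 3 downward, around a median log2 ratio of 0.28. FOXA2 and GATA6, of lung epithelium, had signals of 338, 986 and 758 and signals of 267, 768 and 669. ERG, of endothelium, had signals of 258, 762 and 551, and EHF, of epithelium, signals of 151, 482 and 276, where the operated signal exceeded the non-operated one. ETS2, FOXA1 and FOXP1 were 2.68-fold higher, at least 2.11-fold higher and 2.06-fold higher, and LMO2, of blood cells, was 2.06-fold lower.

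A few genes set the operated lung apart from both other lungs. Of the 441 genes at least 2-fold higher and the 448 lower than sham, 4 also differed at least 2-fold between the operated and the non-operated lung. The share of all counted genes that differed so between the I-R lungs is not given here, so the 4 are not read against a background. They were TIMP1, SFTPB, COL5A3 and CHI3L1, whose signals are given above, and they were picked out after their values were seen. TIMP1 and CHI3L1 were lowest in the operated lung, and SFTPB and COL5A3 were highest there. Each was read by 1 counted probe set, and the log2 difference of the operated minus the non-operated lung was -1.34 for TIMP1 and 1.13 for SFTPB. It was 1.09 for COL5A3 and -1.05 for CHI3L1. COL5A3 lay near the floor in the sham and the non-operated lung, at signals of 185 and 184, and only 1 of its 3 probe sets was counted.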

How the data were processed

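Total RNA of 3 minipig lung samples was hybridised, after TRIZOL extraction and biotin labelling by a 3' in vitro transcription kit, to an Affymetrix porcine array, per the labels' protocols. The authors deposited log2 signals of MAS5, per the submitters' processing notes. The sources used here do not give its version. Of 23999 probe sets, 64 reporter controls were left out. Of the other 23935, 10069 carry 1 gene symbol in GEO's platform annotation, 198 several and 13668 none. Of the first kind, 9961 matched RefSeq's gene table for Sscrofa11.1, and 0 symbols were updated. Each value was floored at its array's median (the 50th percentile). A gene needed a signal above the floor on 1 of both arrays, and the probe set with the highest mean over the 3 arrays stood for it. The log2 ratio is the operated minus the sham value, with no test.

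Named genes are the 30 highest and 30 lowest ratios among genes above both floors whose probe sets lay on 1 side, the 15 largest bounds in each direction, the 10 brightest genes of an array, and members of the gene lists, those at least 2-fold apart first. For the first of these and the bounds the brighter signal had to reach 4 times its floor. Of the lists, 1 is not reported here. The members and lists were chosen with earlier results of these data known. Alternatives were scaling by quantile, median or cyclic loess, floors at the 25th and 75th percentiles, no floor, a pseudocount of 50, the mean of probe sets, single probe sets, and other fold thresholds. Python 3.11.15, numpy 2.4.6, pandas 2.3.3, matplotlib 3.10.9, and R 4.3.3 with limma 3.58.1 were used. The scripts were tested on simulated data. Promoter motifs were not searched here.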

Additional observations from a re-analysis of the deposited data

Results flagged for a closer look

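Probe sets without a gene name enter no comparison above, yet they carry differences of the same size. Of 6515 such probe sets that were above the floor on the sham or the operated lung array, 685 were at least 2-fold higher in the operated lung, which is 10.5%. In the same set 506 were at least 2-fold lower, which is 7.77%. Among the 5097 counted genes the corresponding shares were 8.65% and 8.79%. With 1 array a group these differences have no replicate check.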

How the results depend on the processing

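The count of genes at least 2-fold higher or lower depended on the threshold and the floor. With the floor at the 75th percentile 230 genes were higher and 197 lower, and with no floor and no filter 744 and 877. A threshold of 1.5-fold gave 853 higher and 1107 lower genes, and one of 4-fold 83 and 74. Under the other 7 alternatives run for these counts, namely quantile, median and cyclic loess scaling, a floor at the 25th percentile, a pseudocount of 50, the mean of a gene's probe sets and single probe sets, the counts ran from 422 to 570 and from 432 to 612. Of 413 named or list genes beyond 2-fold, 271 were so, in the same direction, in every setting that counted them, and 0 changed sign. Single probe sets and other fold thresholds were not part of this gene count, and most of its settings read 1 probe set a gene. The count therefore says little on agreement between probe sets, which differed in sign for genes such as OAZ1, SFRP1, SNRPA1, CASP2 and DDX39B. The median ratio over all genes stayed between -0.12 and -0.096. Weak signals are limited by the floor rather than by counts. No paired analysis was possible because each group holds 1 array, and for the same reason no replicate could be left out. Promoter motifs were not run.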
